A study of Mus musculus with 25 samples.

Results

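Aminoacyl-tRNA synthetases, the enzymes that load amino acids onto transfer RNAs, were followed in mouse thymocytes through a CD3 signal given with and without the kinase WNK1. The rule went by gene name and used no measured value, although the list was drawn up with earlier results of these data known. It took 20 genes of cytosolic enzymes and 16 genes of mitochondrial enzymes, whose names end in 2. All 36 were found among the 48795 rows of the gene table, and all 36 were among the 14141 genes whose normalized count averaged at least 10 over the libraries.

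The WNK1-deficient cells came from *Wnk1* fl/fl mice (KO, WNK1-deficient) and the control cells from *Wnk1* fl/+ mice (HET), which keep 1 intact *Wnk1* allele. Mice of both genotypes carried CD2-Cre, a transgene that acts in lymphoid cells, and lacked *Rag1*, so that their thymocytes cannot assemble a T-cell receptor β chain and halt at the pre-TCR checkpoint. Animals aged 7 to 8 weeks were injected with 150 µg of anti-CD3ε, which stands in for the pre-TCR signal, and their Thy1.2+ CD44- thymocytes (the DN3 and DN4 stages) were sorted 3, 24 or 48 hr afterwards, while mice of the 0 hr groups had no injection. Genotype and time gave 8 groups of 3 libraries, except that KO at 0 hr had 4 libraries, which made 25 libraries of separate mice from 1 experiment.

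A synthetase joins its amino acid to the matching transfer RNA with energy from ATP, and the ribosome then uses the charged transfer RNA to read a codon. Cells keep separate sets of these enzymes for the cytosol and the mitochondrial matrix, both encoded in the nucleus, although *Gars* and *Kars* each serve both compartments from a single gene. Several cytosolic enzymes are held together in the multi-synthetase complex, and transcripts of many cytosolic synthetases are known to rise through the transcription factor ATF4 when amino acids run short.

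Libraries held 22.5 to 57.3 M reads, with a median of 36.6 M. *Wnk1* was lower in KO than in HET at every time, with no overlap between the groups, for example 3967, 3161, 3037 and 3614 in KO against 5643, 5407 and 7356 in HET at 0 hr. The 8 DN3 markers summed to 53438 to 457180 per library, while of the B cell markers *Ms4a1* stayed at or near 0 and *Cd79b* had 368 to 2604 in every library. Levels of *Xist* showed that mice at 0 and 48 hr were female and those at 3 and 24 hr male, and the 4 sequencing lanes were not spread evenly over the groups. Comparisons of 3 or 24 hr with 0 hr therefore cannot be told apart from sex, and they shared no lane. Comparisons of 24 with 3 hr were made within males and within 2 lanes, and comparisons of 48 with 0 hr were made within females. Lanes were not balanced in these either. KO libraries at 3 hr were all in lane 4 and those at 24 hr in lanes 3 and 4. KO libraries at 0 hr were all in lane 2 and those at 48 hr in lanes 1 and 3, with no lane shared. At 3 hr HET replicate 3 stood apart by its *Cd8a* (12652), as did HET replicate 3 at 24 hr by its DN3 markers and KO replicate 3 at 48 hr by its *Myc*. This KO library also stood apart from KO replicates 1 and 2 by some DN3 markers, such as *Ptcra* (574, against 18.2 and 22.5) and *Dntt* (27660, against 4519 and 3342), though not by *Cd3e*. Its *Gzma* was 45643, against 9575 and 9337. In these bulk samples fewer cells of a type and less RNA per cell cannot be told apart.

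The start regions of the synthetase genes were searched for TGATGNAA, the core of the C/EBP-ATF response element that ATF4 binds, and for CACGTG, the E-box that MYC and its partners bind. RefSeq windows on GRCm38.p6, from 250 bases before to 50 bases after the annotated start, were at hand for 13 of the 20 cytosolic and 14 of the 16 mitochondrial genes, and both strands were read. TGATGNAA was found in 5 of 13 cytosolic windows (38.5%) and in 0 of 14 mitochondrial windows, against 4.51% of 27025 mouse genes. CACGTG was found in 4 of 13 cytosolic windows (30.8%) and in 1 of 14 mitochondrial windows (7.14%), against 8.09% of the same genes. The 5 cytosolic windows that hold TGATGNAA belong to genes for the enzymes of isoleucine, threonine, glycine, alanine and tyrosine, and are shown because transcripts of 4 of them rose at 3 hr in HET. The transcript of *Yars*, for the tyrosine enzyme, did not pass. *Qars*, for the glutamine enzyme, is shown too, since its transcript fell and its window held no match. The windows of *Eprs* (at an internal RefSeq start), *Mars* and *Farsb* held no TGATGNAA either, although their transcripts rose at 3 hr in HET. No window was at hand for *Nars*, *Cars*, *Lars*, *Rars* or *Hars*, whose transcripts rose there too. Whether the motif goes with the response was not tested. Each sequence reads 5′ to 3′ on the strand of its gene, with matches to either motif in capitals, and the motifs did not overlap each other. A match is a run of letters and was not tested as a binding site.
Iars (chr13:49681880-49682179, plus strand): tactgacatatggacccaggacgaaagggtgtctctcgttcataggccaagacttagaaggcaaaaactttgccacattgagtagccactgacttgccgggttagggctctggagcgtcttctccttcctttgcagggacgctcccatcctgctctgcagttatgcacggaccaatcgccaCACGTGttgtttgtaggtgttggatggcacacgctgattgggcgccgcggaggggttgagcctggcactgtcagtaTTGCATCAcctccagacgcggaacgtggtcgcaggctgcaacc
Tars (chr15:11399609-11399908, minus strand): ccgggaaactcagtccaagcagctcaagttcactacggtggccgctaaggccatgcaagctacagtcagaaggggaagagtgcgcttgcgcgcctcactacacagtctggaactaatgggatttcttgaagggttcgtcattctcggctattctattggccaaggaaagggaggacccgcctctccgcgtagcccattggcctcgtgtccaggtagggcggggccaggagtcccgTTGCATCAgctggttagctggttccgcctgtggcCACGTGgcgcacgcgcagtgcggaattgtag
Gars (chr6:55037751-55038050, plus strand): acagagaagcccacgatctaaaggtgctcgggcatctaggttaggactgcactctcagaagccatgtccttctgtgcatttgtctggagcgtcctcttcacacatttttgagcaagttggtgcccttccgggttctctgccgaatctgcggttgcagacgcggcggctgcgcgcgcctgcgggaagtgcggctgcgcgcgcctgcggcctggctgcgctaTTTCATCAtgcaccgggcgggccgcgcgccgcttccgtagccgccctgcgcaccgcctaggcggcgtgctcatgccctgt
Aars (chr8:111033592-111033891, plus strand, at an internal RefSeq start): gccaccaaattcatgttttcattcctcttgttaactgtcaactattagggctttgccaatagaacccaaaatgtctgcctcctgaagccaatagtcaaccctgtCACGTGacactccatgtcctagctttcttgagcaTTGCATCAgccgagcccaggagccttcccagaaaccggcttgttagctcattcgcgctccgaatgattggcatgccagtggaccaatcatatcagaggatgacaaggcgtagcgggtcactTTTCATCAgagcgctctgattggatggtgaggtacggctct
Yars (chr4:129189653-129189952, plus strand, at an internal RefSeq start): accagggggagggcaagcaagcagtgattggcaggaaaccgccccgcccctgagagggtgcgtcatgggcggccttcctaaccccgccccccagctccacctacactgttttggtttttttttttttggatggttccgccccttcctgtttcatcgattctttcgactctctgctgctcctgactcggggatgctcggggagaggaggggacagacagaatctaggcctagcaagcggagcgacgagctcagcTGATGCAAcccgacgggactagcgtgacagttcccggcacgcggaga
Qars (chr9:108507755-108508054, plus strand): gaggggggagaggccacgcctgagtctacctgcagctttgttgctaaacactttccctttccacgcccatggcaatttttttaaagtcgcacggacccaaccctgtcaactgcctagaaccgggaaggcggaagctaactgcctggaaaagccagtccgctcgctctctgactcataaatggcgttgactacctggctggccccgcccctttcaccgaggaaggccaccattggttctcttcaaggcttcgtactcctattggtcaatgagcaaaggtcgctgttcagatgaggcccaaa

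In the *Iars* window the TGATGNAA match begins 7 bases from the start and the E-box at -69, and in the *Tars* window they begin at -15 and 19. The *Gars* match begins at -30 and the *Yars* match at 3, and neither window holds an E-box. *Aars* has TGATGNAA matches at -112 and 9 and an E-box at -146. The other E-boxes were those of *Farsb*, a subunit gene of the phenylalanine enzyme, at -39, and of *Ears2*, the mitochondrial glutamate enzyme, at 21.

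Per kilobase of longest annotated transcript, the cytosolic genes were expressed well above the mitochondrial ones. Mean normalized counts per kilobase over the 25 libraries ran from 406 to 3961 for the 20 cytosolic genes, with a median of 1458, and from 88.8 to 564 for 15 mitochondrial genes, with a median of 344. *Lars2*, for the mitochondrial leucine enzyme, lay far outside that range and is described at the end. Among the other genes the highest per kilobase was *Kars* at 3961, for the lysine enzyme of both compartments, followed by *Vars* at 2950.4, for the valine enzyme. The lowest was *Wars2* at 88.8, for the mitochondrial tryptophan enzyme. Every cytosolic gene except *Cars*, for the cysteine enzyme, lay above each of these 15 mitochondrial genes.

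The first question was how synthetase transcripts at 3 hr after the CD3 signal differed from those at 0 hr, a comparison that sex and lane separated as well. In both genotypes part of the cytosolic set rose and the mitochondrial set had no common direction. In KO 8 of 20 cytosolic genes rose and 0 fell, while 1 of 16 mitochondrial genes rose and 1 fell, against 13.3% of all genes tested that rose and 11.3% that fell. In HET 12 of 20 cytosolic genes rose and 1 fell, while 2 of 16 mitochondrial genes rose and 5 fell, against 18.4% of all genes that rose and 18.5% that fell. The median log2 fold change of the cytosolic genes was 0.22 in KO and 0.53 in HET, that of the mitochondrial genes -0.03 in KO and -0.22 in HET, and that of all genes -0.00 in KO and -0.03 in HET.

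*Iars* (ENSMUSG00000037851, chromosome 13, 49682130 to 49734267), for the isoleucine enzyme of the multi-synthetase complex, had the largest cytosolic rise in KO. Its normalized counts were 5219, 6080.4 and 6704 in KO at 3 hr, against 3461, 3547, 3408 and 3381 in KO at 0 hr (log2 fold change 0.79, SE 0.13, adjusted p = 2.47e-04). In HET they were 7727, 9249 and 7376 at 3 hr, against 3548, 3684 and 4159.9 at 0 hr (log2 fold change 1.09, SE 0.14, adjusted p = 7.30e-06). In each genotype every 3 hr library lay above every 0 hr library, which makes *Iars* 1.73-fold higher in KO and 2.13-fold higher in HET. *Eprs* (ENSMUSG00000026615, chromosome 1, 185361417 to 185428360), a double enzyme for glutamate and proline in the same complex, had 8999, 9650.1 and 9387 in KO at 3 hr, against 6366, 6694, 5829 and 6279.9 in KO at 0 hr (log2 fold change 0.57, SE 0.19, adjusted p = 0.032). In HET it had 11214, 13147 and 11520.3 at 3 hr, against 5554, 5714 and 6629.6 at 0 hr (log2 fold change 1.00, SE 0.20, adjusted p = 6.96e-04). The groups were apart in both genotypes, but the KO call was lost when any of 6 of the 7 KO libraries was left out (all but KO replicate 2 at 0 hr).

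*Tars* (ENSMUSG00000022241, chromosome 15, 11383663 to 11399658), for the threonine enzyme, had 3332, 3441 and 4171 in KO at 3 hr, against 2877, 2420.3, 2493 and 2689.7 in KO at 0 hr (log2 fold change 0.47, SE 0.13, adjusted p = 0.0135), a call that was lost without KO replicate 3 at 3 hr. *Tars* in HET had 4113, 5200.0 and 6459.8 at 3 hr, against 2455, 2439 and 2369 at 0 hr (log2 fold change 1.09, SE 0.14, adjusted p = 7.75e-06), with replicate 3 the highest. Again no library of one time reached into the range of the other. *Nars* (ENSMUSG00000024587, chromosome 18, 64499655 to 64516515), for the asparagine enzyme, had 5145, 5092 and 5899 in KO at 3 hr, against 3953, 3540.2, 3609.8 and 3819 in KO at 0 hr (log2 fold change 0.53, SE 0.12, adjusted p = 0.00411). The HET libraries had 6142, 8132 and 6886 at 3 hr, against 3512, 3816 and 3430.1 at 0 hr (log2 fold change 0.97, SE 0.13, adjusted p = 1.28e-05). All 3 hr libraries lay above all 0 hr libraries, with HET replicate 2 the highest.

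**Figure D1:**
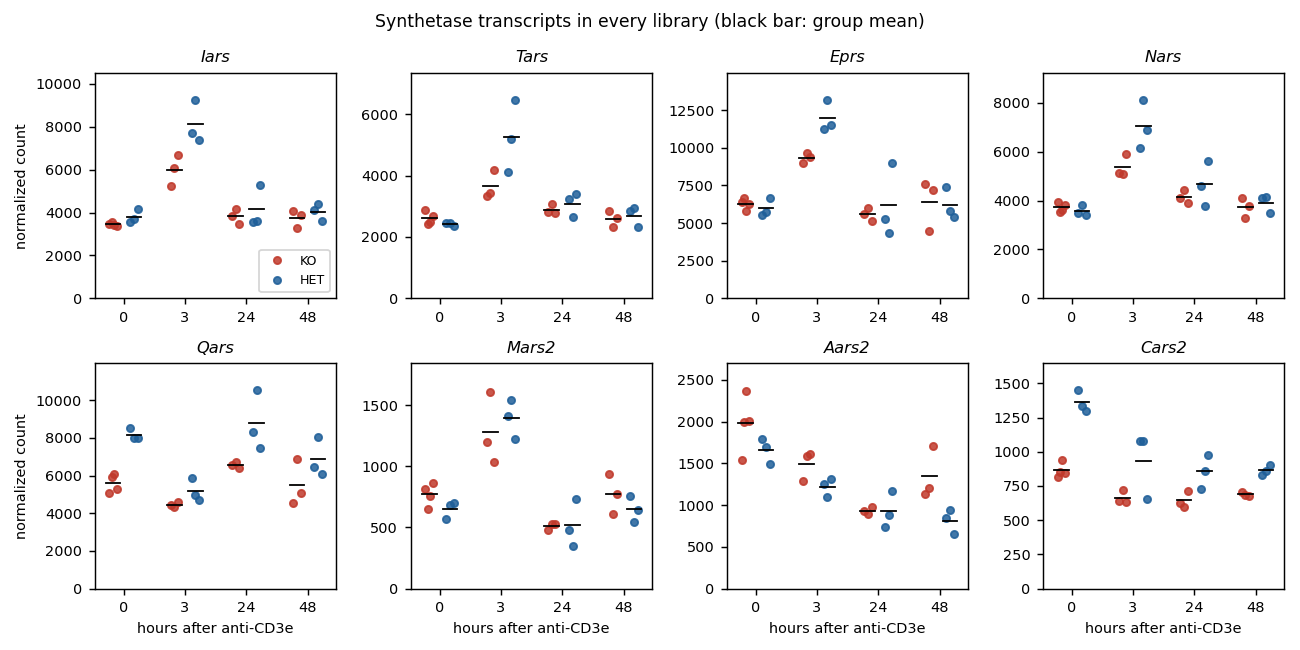
Normalized count (vertical axes) of 8 synthetase genes in every library against hours after anti-CD3ε, with KO (red) left of HET (blue) and black bars for group means. *Iars*, *Tars*, *Eprs* and *Nars* are highest at 3 hr, *Qars* has its lowest group means at 3 hr, *Mars2* its highest, and *Aars2* and *Cars2* have their highest group means at 0 hr.

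The other cytosolic genes that rose in both genotypes were *Cars* (log2 fold change 0.42 in KO and 0.88 in HET), *Lars* for the leucine enzyme (0.41 in KO and 0.70 in HET), *Rars* for the arginine enzyme (0.44 in KO and 0.65 in HET) and *Hars* for the histidine enzyme (0.43 in KO and 0.46 in HET). *Gars* for the glycine enzyme (0.75), *Mars* for the methionine enzyme (0.63), *Aars* for the alanine enzyme (0.59) and *Farsb* (0.35) passed in HET and not in KO. In KO their log2 fold changes were 0.25, 0.32, 0.11 and 0.19, and the difference between the genotypes was tested separately. Of the 8 enzymes of the multi-synthetase complex 4 rose in KO (median 0.36) and 5 rose in HET (median 0.64). Of the 12 cytosolic enzymes outside it 4 rose in KO (median 0.17) and 7 rose in HET (median 0.41). Of all genes tested 13.3% rose in KO and 18.4% in HET.

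*Qars* (ENSMUSG00000032604, chromosome 9, 108508005 to 108515941), for the glutamine enzyme of the complex, moved against the other cytosolic genes. It had 5886, 4957 and 4692 in HET at 3 hr, against 8554, 7987 and 8000.4 in HET at 0 hr (log2 fold change -0.67, SE 0.15, adjusted p = 0.00133), with all 3 hr libraries below all 0 hr libraries. In KO it had 4412, 4356 and 4603 at 3 hr, against 5067, 5939, 6098 and 5282 at 0 hr, which did not pass (log2 fold change -0.32, SE 0.14, adjusted p = 0.086), although these groups were apart as well.

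Of the mitochondrial genes *Mars2* (ENSMUSG00000046994, chromosome 1, 55237177 to 55240058), for the methionine enzyme, rose in both genotypes. It had 1199, 1610.5 and 1038 in KO at 3 hr, against 817, 649, 757 and 859.6 in KO at 0 hr (log2 fold change 0.72, SE 0.21, adjusted p = 0.015), a call that was lost without KO replicate 2 at 3 hr. In HET it had 1407, 1543 and 1222 at 3 hr, against 571, 685 and 702 at 0 hr (log2 fold change 1.09, SE 0.22, adjusted p = 7.03e-04), and in both genotypes the times were apart. *Yars2*, for the mitochondrial tyrosine enzyme, had 920.4, 829 and 857 in HET at 3 hr, against 616, 563 and 551 in HET at 0 hr (log2 fold change 0.59, SE 0.14, adjusted p = 0.00318), whereas its log2 fold change in KO was 0.06 and did not pass. *Fars2*, for the mitochondrial phenylalanine enzyme, had the largest fall in HET, with 732, 584 and 612 at 3 hr, against 1338, 1225 and 1019 at 0 hr (log2 fold change -0.89, SE 0.17, adjusted p = 4.06e-04). Every HET library at 3 hr was above the 0 hr range for *Yars2* and below it for *Fars2*.

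*Hars2* (ENSMUSG00000019143, chromosome 18, 36783202 to 36792562), for the mitochondrial histidine enzyme, fell in both genotypes while *Hars* (ENSMUSG00000001380, chromosome 18, 36766528 to 36783205), whose annotated span touches that of *Hars2*, rose. *Hars2* had 1063, 1047 and 909.8 in KO at 3 hr, against 1447, 1251, 1287 and 1295 in KO at 0 hr (log2 fold change -0.39, SE 0.10, adjusted p = 0.00768). *Hars2* in HET had 969, 861 and 768 at 3 hr, against 1113, 1221 and 1105 at 0 hr (log2 fold change -0.41). The times were apart in both genotypes, and the KO call was lost without KO replicate 3 at 3 hr. *Cars2* (-0.58), *Vars2* (-0.45) and *Wars2* (-0.44), for the mitochondrial cysteine, valine and tryptophan enzymes, also fell in HET on the log2 scale. In KO they had -0.38, -0.01 and -0.11, which did not pass.

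**Figure D2:**
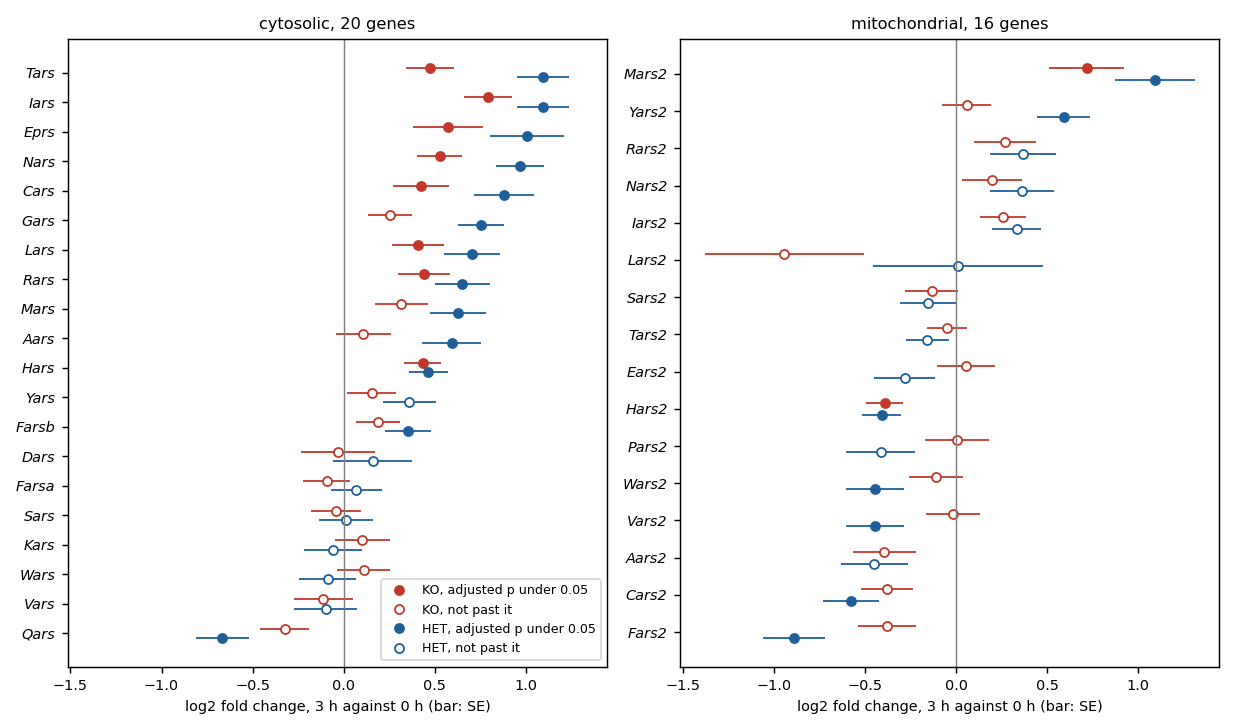
Log2 fold change at 3 hr against 0 hr (horizontal axis, bars of 1 standard error) for the 20 cytosolic and 16 mitochondrial genes, with KO (red) above HET (blue) for each gene and filled points for an adjusted p under 0.05. *Tars*, *Iars* and *Eprs* lie farthest to the right among cytosolic genes in HET, and *Qars* (-0.67 in HET) lies to the left.

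At 3 hr the libraries lay in lanes 3 and 4 and at 0 hr in lanes 1 and 2. With lane as a covariate, 1 member passed in KO (*Iars*, 1.28, adjusted p = 0.0312) and 8 passed in HET, where *Iars* (1.12, adjusted p = 0.00172), *Nars* (1.00, adjusted p = 0.00608), *Tars* (1.04, adjusted p = 0.0105) and *Mars2* (1.17, adjusted p = 0.0476) were among them and *Eprs*, *Qars*, *Fars2* and *Yars2* were not. In KO 5 members passed without replicate 2 at 3 hr and 4 without replicate 3 at 3 hr, in place of 10.

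The next question was whether the change over time after the CD3 signal differed between the genotypes. By limma's test of that difference (the KO response minus the HET response), 0 of 36 members passed at 3 hr against 0 hr, with 6 at an unadjusted p under 0.05, and edgeR and DESeq2 called 0 as well. Over all genes tested 0.0707% passed. Of the 20 cytosolic genes 17 lay below 0, and the median over all 20 was -0.21, against 0.03 over all genes. The largest cytosolic difference was that of *Tars* (-0.62, SE 0.20, unadjusted p = 0.00461, adjusted p = 0.231 by limma), followed by *Gars* (-0.50, SE 0.17, adjusted p = 0.274 by limma). *Tars* passed when HET replicate 1 at 3 hr was left out, which made 1 member of 36. For the responses to 24 hr (against 0 and against 3 hr) and to 48 hr (against 0 hr) 0 of 36 members passed by limma, edgeR or DESeq2, against 0.658% of all genes tested at 24 against 0 hr, 0.283% at 24 against 3 hr and 1.36% at 48 against 0 hr. At an unadjusted p under 0.05 there were 2 members at 24 against 0 hr, 0 at 24 against 3 hr and 1 at 48 against 0 hr.

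The direct comparison of KO with HET at 3 hr gave few calls. In KO 0 of 20 cytosolic genes were higher and 2 lower, and 0 of 16 mitochondrial genes were higher and 1 lower, against 5.75% of all genes tested that were higher and 3.43% that were lower. *Cars* (ENSMUSG00000010755, chromosome 7, 143557230 to 143600090) had 1214, 1402 and 1776 in KO at 3 hr, against 1698, 2541 and 2141 in HET (log2 fold change -0.54, SE 0.16, adjusted p = 0.0444). *Tars* had 3332, 3441 and 4171 in KO, against 4113, 5200.0 and 6459.8 in HET (log2 fold change -0.51, SE 0.14, adjusted p = 0.0275). For both genes the highest KO library, replicate 3, reached just above the lowest HET library, replicate 1. *Tars2*, for the mitochondrial threonine enzyme, had 1495, 1791 and 1877 in KO, against 2548, 2170.4 and 2045 in HET (log2 fold change -0.39, SE 0.12, adjusted p = 0.0413), and here the groups were apart. Each of these 3 calls was lost without HET replicate 2, KO replicate 1 or KO replicate 2 at 3 hr. The *Tars2* call was lost as well without HET replicate 1. Those of *Cars* (-0.52, adjusted p = 0.106 by limma) and *Tars* (-0.35, adjusted p = 0.161 by limma) were lost without HET replicate 3, the library that stood apart by its *Cd8a*.

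Most cytosolic genes lay lower in KO at 3 hr without passing the test. The log2 fold change was below 0 for 18 of 20 (median -0.30, against -0.02 over all genes and -0.13 over the mitochondrial genes), and in 9 of 20 every KO library lay below every HET library, which held for 14.2% of all genes tested. *Vars* and *Wars* were the exceptions, at 0.18 and 0.00. The 20 cytosolic genes together summed to 92866, 97860 and 112022 in KO (lowest, median and highest library), against 113894, 118404 and 122374 in HET. On the deposited scale these sums did not overlap, but the gap between 112022 and 113894 was narrow. Whether the sums stay apart with every library scaled to 1 total was not tested. For the mitochondrial genes without *Lars2* the sums were 15069, 15993 and 16351 in KO, against 15824, 16494 and 18626 in HET, which did overlap. None of the 36 members passed when HET replicate 2, KO replicate 1 or KO replicate 2 was left out, or with every library scaled to 1 total, where the median of all genes shifted to 0.05 in log2. At 3 hr the B cell markers summed to 376 to 422 in KO, against 544 to 870.4 in HET, and the NK and innate lymphoid markers to 13661 to 17128 in KO, against 10411 to 11322 in HET. Of the NK list *Gzma* was higher in KO (10775, 7259 and 8056, against 2215, 1400 and 2731 in HET), as was *Ncr1* at low values. *Nkg7* overlapped (6226, 6355 and 8825 in KO, against 9049, 8792 and 7934 in HET), as did *Klrb1c*. The part of these marker lists in these results was not tested.

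Among the genes of the amino-acid and ATF4 response 5 of 20 rose and 1 fell in KO at 3 hr against 0 hr, and 9 of 20 rose and 1 fell in HET, where the shares of all genes were 13.3% up and 11.3% down in KO and 18.4% up and 18.5% down in HET. *Atf4* itself had 5729.5, 6155 and 7554 in KO at 3 hr, against 7618, 12160.0 and 10426 in HET at 3 hr (log2 fold change -0.62, SE 0.14, adjusted p = 0.0063), and the groups were apart. HET replicate 2 at 3 hr, which was the highest HET library for *Aars*, *Cars*, *Eprs*, *Iars* and *Nars*, was also the highest for *Atf4*, for *Trib3* (96.7, 27.2 and 35.5 in KO, against 36.3, 363 and 57.6 in HET) and for *Chac1* (2.32, 1.43 and 1.48 in KO, against 21.6, 256 and 28.3 in HET), both known as ATF4 targets. Other genes of this list did not share that order: *Asns*, *Phgdh*, *Psph* and *Shmt2* were highest in HET replicate 1 at 3 hr (*Asns* with 1047, 333 and 38.8 in HET), and *Slc7a11*, *Ddit4* and *Eif2ak4* in HET replicate 3 (*Slc7a11* with 56.9, 239 and 552). The cytosolic synthetases were divided as well. HET replicate 2 at 3 hr was the highest HET library also for *Farsa*, *Gars*, *Mars*, *Sars*, *Vars* and *Yars*. It was the lowest HET library for *Dars*, *Hars*, *Kars*, *Rars* and *Wars*. *Tars* and *Lars* were highest in HET replicate 3, and *Farsb* and *Qars* in HET replicate 1. The part of the amino-acid and ATF4 response in the synthetase values was not tested. *Slc3a2* (log2 fold change 1.05 in KO and 1.64 in HET) and *Slc7a5* (1.21 in KO and 1.69 in HET), the pair that makes up an amino-acid transporter, rose at 3 hr in both genotypes. *Myc* rose at 3 hr in KO (0.95, adjusted p = 0.0492 by limma) and did not pass in HET (0.21).

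The genes that work beside the synthetases split in the same comparisons, in which 13.3% of all genes rose and 11.3% fell in KO, and 18.4% rose and 18.5% fell in HET. Of 3 scaffolds of the multi-synthetase complex 1 fell in each genotype, *Aimp1* (-0.54 in KO and -0.40 in HET). Of 21 genes of tRNA maturation and export 6 rose and 3 fell in KO, and 8 rose and 3 fell in HET, led by *Trmt61a*, the catalytic subunit of a tRNA methyltransferase (1.40 in KO and 1.48 in HET). *Xpot*, which exports transfer RNAs from the nucleus, rose by 0.64 in KO and 0.86 in HET. Of 14 further genes of charging, amidation and proofreading 2 rose and 4 fell in KO, and 2 rose and 6 fell in HET.

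From 3 to 24 hr, within males and lanes 3 and 4, several of the cytosolic genes that had risen fell back. In KO 6 of 20 cytosolic genes were lower at 24 hr and 2 higher, and 6 of 16 mitochondrial genes were lower and 2 higher, against 18.7% of all genes that were lower and 18.4% that were higher. In HET 6 of 20 cytosolic genes were lower and 1 higher, and 4 of 16 mitochondrial genes were lower and 1 higher, against 22.3% of all genes that were lower and 21.3% that were higher. Cytosolic medians were -0.20 in KO and -0.21 in HET and mitochondrial medians -0.16 in KO and -0.15 in HET, against 0.01 in KO and -0.01 in HET over all genes. These comparisons share their 3 hr libraries with those above, so a fall after a rise is partly the same measurement.

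*Eprs* had 5633, 5988 and 5161 in KO at 24 hr (log2 fold change -0.74, SE 0.20, adjusted p = 0.00695 against the 3 hr values above) and 5290.1, 4332 and 8959.8 in HET at 24 hr (log2 fold change -1.02, SE 0.20, adjusted p = 4.99e-04). *Iars* had 3832, 4164 and 3459 in KO at 24 hr (log2 fold change -0.65, SE 0.14, adjusted p = 0.00137) and 3583, 3589.8 and 5308 in HET at 24 hr (log2 fold change -0.98, SE 0.14, adjusted p = 2.40e-05). For both genes the 24 hr libraries lay below all 3 hr libraries in each genotype, with HET replicate 3 the highest at 24 hr. *Rars* had 2785, 2859 and 2659 in KO at 24 hr, against 3588, 3804 and 4321 in KO at 3 hr (log2 fold change -0.49, SE 0.15, adjusted p = 0.0138), a call that was lost without KO replicate 3 at 3 hr. *Tars* had 3228, 2649.9 and 3387 in HET at 24 hr (log2 fold change -0.75, SE 0.14, adjusted p = 3.27e-04), and 2809, 3059 and 2797 in KO, which did not pass (-0.33, adjusted p = 0.0745 by limma). *Nars* (-0.37 in KO and -0.61 in HET) and *Cars* (-0.43 in KO and -0.49 in HET) fell in both genotypes on the log2 scale.

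*Qars* again ran the other way. It had 6588, 6729 and 6417 in KO at 24 hr (log2 fold change 0.56, SE 0.15, adjusted p = 0.00474) and 8319, 10561 and 7474 in HET at 24 hr (log2 fold change 0.75, SE 0.15, adjusted p = 3.61e-04), above every 3 hr library of the same genotype. *Sars*, for the serine enzyme, had 6565, 7047 and 6414 in KO at 24 hr, against 4346, 4481 and 5719 in KO at 3 hr (log2 fold change 0.47, SE 0.15, adjusted p = 0.017), with the groups apart. Its KO call was lost without KO replicate 1 or 2 at 3 hr or KO replicate 2 at 24 hr, and in HET its log2 fold change was 0.31 and did not pass.

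The largest fall was that of *Mars2*, which had 477, 526 and 524 in KO at 24 hr (log2 fold change -1.31, SE 0.22, adjusted p = 1.34e-04) and 482, 349 and 734 in HET at 24 hr (log2 fold change -1.47, SE 0.22, adjusted p = 3.33e-05). *Nars2*, for the mitochondrial asparagine enzyme, had 422, 446 and 402 in KO at 24 hr, against 653, 659 and 552 in KO at 3 hr (log2 fold change -0.55, SE 0.18, adjusted p = 0.0189). Its HET libraries had 376, 291 and 522 at 24 hr, against 789, 686 and 566 at 3 hr (log2 fold change -0.81, SE 0.18, adjusted p = 0.00112). Both genes had every 24 hr library below every 3 hr library, but the KO call of *Nars2* was lost without KO replicate 1 or 2 at 3 hr or KO replicate 3 at 24 hr. *Aars2*, for the mitochondrial alanine enzyme, had 925, 893 and 982 in KO at 24 hr, against 1286, 1590.5 and 1609 in KO at 3 hr (log2 fold change -0.67, SE 0.19, adjusted p = 0.00727), and in HET its log2 fold change of -0.41 did not pass. *Yars2* (-0.52 in KO and -0.66 in HET) and *Ears2* (-0.47 in KO and -0.58 in HET) also fell in both genotypes on the log2 scale. *Fars2* rose (0.48 in KO and 0.64 in HET).

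In KO the 16 calls at 24 against 3 hr became 8 without replicate 2 or 3 at 3 hr or replicate 3 at 24 hr, and 9 without replicate 1 or 2 at 24 hr. In HET the 12 calls became 19 without HET replicate 3 at 3 hr, HET replicate 3 at 24 hr and KO replicate 3 at 48 hr, the libraries that stood apart.

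Set against 0 hr, few cytosolic genes differed at 24 hr, and each mitochondrial gene that passed was lower. In KO 1 of 20 cytosolic genes was higher and 0 lower, and 0 of 16 mitochondrial genes were higher and 5 lower, against 16% of all genes that were higher and 14.3% that were lower. In HET 4 of 20 cytosolic genes were higher and 0 lower, and 0 of 16 mitochondrial genes were higher and 6 lower, against 17% of all genes that were higher and 16.9% that were lower. The cytosolic medians were 0.09 in KO and 0.27 in HET, the mitochondrial medians -0.16 in KO and -0.33 in HET, and the medians of all genes 0.00 in KO and -0.01 in HET. The 0 hr libraries are those of the 3 hr comparison.

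*Sars* was the 1 cytosolic gene that rose in KO, with the 24 hr values above, against 4446, 5254, 5468 and 4716 in KO at 0 hr (log2 fold change 0.43, SE 0.14, adjusted p = 0.0229), and its call was lost without KO replicate 1 or 4 at 0 hr or KO replicate 1 or 2 at 24 hr. In HET *Hars* had 3542, 3398 and 3752 at 24 hr, against 2647, 2643 and 2657 at 0 hr (log2 fold change 0.43, SE 0.11, adjusted p = 0.00423), with the times apart. *Gars* had 4925, 5255 and 6482 in HET at 24 hr, against 4192, 4064 and 4180.0 in HET at 0 hr (log2 fold change 0.41, SE 0.13, adjusted p = 0.0163), a call that was lost without HET replicate 2 at 0 hr or HET replicate 3 at 24 hr. *Aars* had 6063, 6888 and 6185 in HET at 24 hr, against 5184, 4558 and 4436 in HET at 0 hr (log2 fold change 0.43, SE 0.16, adjusted p = 0.0407), and kept its call only without HET replicate 1 at 0 hr. For *Hars*, *Gars* and *Aars* all 24 hr libraries lay above all 0 hr libraries. *Nars* had 4594, 3776 and 5628 in HET at 24 hr, against 3512, 3816 and 3430.1 in HET at 0 hr (log2 fold change 0.36, SE 0.13, adjusted p = 0.0388), where replicate 2 at 24 hr lay within the 0 hr range. Its call was kept only without HET replicate 2 at 24 hr.

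*Aars2* (ENSMUSG00000023938, chromosome 17, 45503515 to 45520843) had the largest mitochondrial fall in KO, with the 24 hr values above, against 1537, 1999, 2367 and 2013 in KO at 0 hr (log2 fold change -1.07, SE 0.17, adjusted p = 7.32e-05). In HET it had 742, 882 and 1166 at 24 hr, against 1793, 1701 and 1496 at 0 hr (log2 fold change -0.86, SE 0.19, adjusted p = 0.00117), with the times apart in both genotypes. *Ears2* (ENSMUSG00000030871, chromosome 7, 122034162 to 122067094), for the mitochondrial glutamate enzyme, had 287, 389 and 500.1 in HET at 24 hr, against 760.5, 682 and 650.5 in HET at 0 hr (log2 fold change -0.86, SE 0.17, adjusted p = 4.89e-04). *Cars2* had 730.0, 858 and 979.9 in HET at 24 hr, against 1454, 1337 and 1299 in HET at 0 hr (log2 fold change -0.68, SE 0.15, adjusted p = 0.00163). Both also fell in KO, *Ears2* by 0.42 and *Cars2* by 0.42 on the log2 scale, and no library of either time overlapped in either genotype. *Mars2* fell in KO at 24 hr, where its values above stood against 817, 649, 757 and 859.6 at 0 hr (log2 fold change -0.59, SE 0.21, adjusted p = 0.0338). *Yars2* had 494, 592 and 545 in KO at 24 hr, against 755, 738, 756 and 744 in KO at 0 hr (log2 fold change -0.46, SE 0.13, adjusted p = 0.0117). The *Mars2* call was kept only without KO replicate 2 at 0 hr, and the *Yars2* call was lost without KO replicate 1 at 24 hr. *Wars2* (-0.58), *Vars2* (-0.53) and *Tars2* (-0.43) fell in HET on the log2 scale.

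The 6 calls in KO became 3 without KO replicate 1, 3 or 4 at 0 hr, 1 without KO replicate 1 at 24 hr and 2 without KO replicate 2 at 24 hr, and the 10 calls in HET became 6 without HET replicate 1 at 24 hr. With lane as a covariate 0 members passed in KO and 2 in HET, *Aars2* (-1.35, adjusted p = 0.00597) and *Hars* (0.56, adjusted p = 0.0489).

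**Figure D3:**
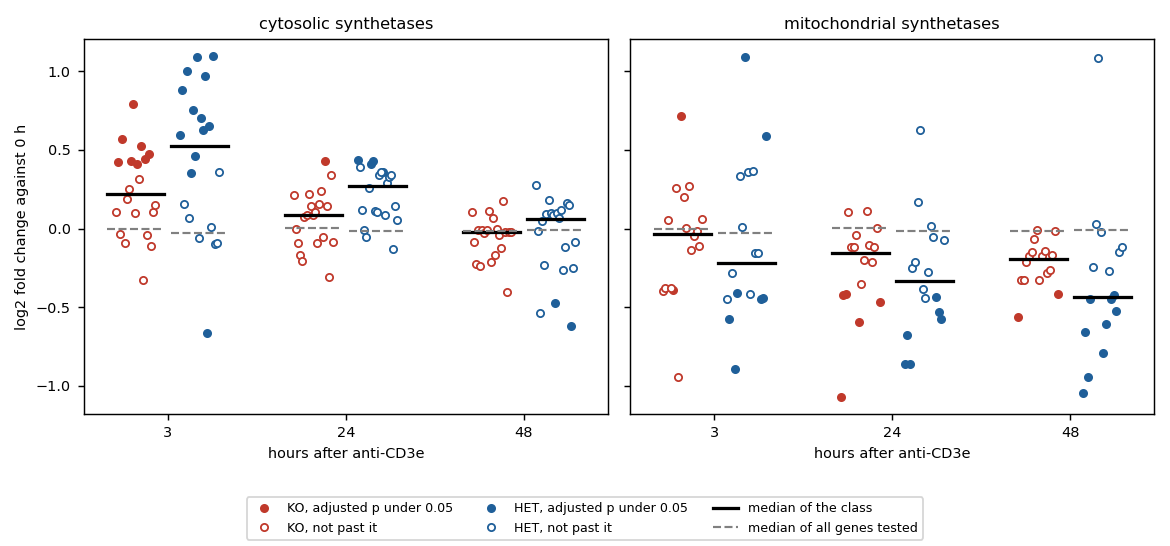
Log2 fold change against 0 hr (vertical axis) at 3, 24 and 48 hr after anti-CD3ε, with 1 point per gene, KO (red) left of HET (blue), filled for an adjusted p under 0.05, black bars for the class median and dashed grey bars for the median of all genes tested. From 3 to 48 hr the cytosolic median in HET is 0.53, 0.27 and 0.06, and the mitochondrial median in HET is -0.22, -0.33 and -0.44.

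At 48 hr the comparison with 0 hr lay within females, although in KO the 2 times shared no lane. Mitochondrial genes fell in HET beyond the share of all genes, while in KO their share of falls matched that of all genes. In KO 0 of 20 cytosolic genes passed, and 0 of 16 mitochondrial genes were higher and 2 lower, against 14.3% of all genes that were higher and 12.5% that were lower. In HET 0 of 20 cytosolic genes were higher and 2 lower, and 0 of 16 mitochondrial genes were higher and 9 lower, against 21.6% of all genes that were higher and 20.8% that were lower. The mitochondrial median was -0.19 in KO and -0.44 in HET, the cytosolic median -0.02 in KO and 0.06 in HET, and that of all genes -0.02 in KO and -0.01 in HET. In KO the log2 fold change of 16 of 16 mitochondrial genes was below 0, and in HET that of 14 of 16.

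*Aars2* had 1133, 1200.4 and 1703 in KO at 48 hr, against the 0 hr values above (log2 fold change -0.56, SE 0.17, adjusted p = 0.0196), where replicate 3 at 48 hr lay within the 0 hr range. In HET it had 849, 936 and 655 at 48 hr (log2 fold change -1.04, SE 0.19, adjusted p = 1.15e-04), well below all 0 hr libraries. Its KO call was lost without KO replicate 3 at 0 hr or KO replicate 1 or 2 at 48 hr. *Ears2* had 334, 402 and 351 in HET at 48 hr (log2 fold change -0.94, SE 0.17, adjusted p = 1.24e-04), and *Nars2* had 325, 282 and 300.4, against 557, 562 and 461 in HET at 0 hr (log2 fold change -0.79, SE 0.18, adjusted p = 0.00108). Both genes were apart between the times in HET, and in KO neither passed (*Ears2* -0.33, *Nars2* -0.33 on the log2 scale). *Yars2* had 509, 606 and 572 in KO at 48 hr (log2 fold change -0.42, SE 0.13, adjusted p = 0.0262), below all 0 hr libraries, and its call was lost without KO replicate 1 or 3 at 0 hr or KO replicate 1 at 48 hr.

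In HET *Cars2* (-0.66), *Pars2* (-0.61), *Vars2* (-0.52), *Sars2* (-0.45), *Fars2* (-0.45) and *Tars2* (-0.42) made up the other 6 mitochondrial genes that fell at 48 hr, *Pars2* and *Sars2* being those of proline and serine. The cytosolic genes that fell in HET were *Vars* (ENSMUSG00000007029, chromosome 17, 35000907 to 35016329), with 8903, 10729.9 and 6151 at 48 hr, against 14122, 12695 and 11867 at 0 hr (log2 fold change -0.62, SE 0.17, adjusted p = 0.00661), and *Kars* (ENSMUSG00000031948, chromosome 8, 111993439 to 112011354), with 7295, 8792 and 5543 at 48 hr, against 9881, 9786 and 9789 at 0 hr (log2 fold change -0.47, SE 0.16, adjusted p = 0.0229). Replicate 3 at 48 hr was the lowest library for both genes, and without it neither passed. The *Kars* call was lost as well without HET replicate 1 or 2 at 0 hr.

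The 2 calls in KO became 1 without KO replicate 1 at 0 hr or KO replicate 2 at 48 hr, and 0 without KO replicate 3 at 0 hr or KO replicate 1 at 48 hr or with lane as a covariate, and 4 without the libraries that stood apart. The 11 calls in HET became 7 without HET replicate 1 at 0 hr or HET replicate 3 at 48 hr, while with lane as a covariate *Aars2* (-1.34, adjusted p = 2.04e-04), *Ears2* (-0.98, adjusted p = 0.00188) and *Nars2* (-0.80, adjusted p = 0.00844) passed too.

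Before any CD3 signal 1 of the 36 members was higher in KO than in HET and 5 were lower, at a time when genotype and lane coincided. At 0 hr 0 of 20 cytosolic genes were higher in KO and 1 lower, and 1 of 16 mitochondrial genes was higher and 4 lower, against 11% of all genes that were higher and 11.1% that were lower. The cytosolic median was -0.06 and the mitochondrial median -0.08, against -0.00 over all genes. *Qars* had 5067, 5939, 6098 and 5282 in KO at 0 hr, against 8554, 7987 and 8000.4 in HET at 0 hr (log2 fold change -0.55, SE 0.14, adjusted p = 0.00629). *Vars2* (ENSMUSG00000038838, chromosome 17, 35655634 to 35667639) had 1069, 1558, 1612 and 1323 in KO, against 2384, 2238 and 2043 in HET (log2 fold change -0.69, SE 0.15, adjusted p = 0.0024). *Cars2* (ENSMUSG00000056228, chromosome 8, 11514017 to 11550781) had 819, 855, 939 and 844 in KO, against 1454, 1337 and 1299 in HET (log2 fold change -0.66, SE 0.14, adjusted p = 0.00254). For each of these genes the 4 KO libraries lay below the 3 HET libraries. *Ears2* had 466, 444, 535 and 454 in KO, against 760.5, 682 and 650.5 in HET (log2 fold change -0.56, SE 0.16, adjusted p = 0.0157), also apart, with a call that was lost without HET replicate 1. *Tars2* was lower in KO (-0.50) and *Yars2* higher (0.38) on the log2 scale.

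All KO libraries at 0 hr were run in lane 2 and all HET libraries in lane 1, so genotype and lane cannot be told apart within this time. With lane as a covariate, estimated from the other times, none of these 6 members passed and *Pars2* alone did, while *Qars* had -0.80, adjusted p = 0.0823. The 8 DN3 markers summed to 258656 to 284514 in KO at 0 hr, against 416821 to 457180.0 in HET, and the 4 NK and innate lymphoid markers to 17962 to 29796 in KO, against 6867 to 10559.7 in HET. Of the NK list *Gzma* alone was apart (19279, 14573, 24921 and 25640.5 in KO, against 6980.1, 5259 and 4983 in HET), whereas *Nkg7* overlapped and *Ncr1* was near 0. The 4 B cell markers, mostly *Cd79b*, summed to 816 to 1163 in KO, against 2229 to 2607 in HET. The 5 myeloid markers, mostly *Lyz2*, summed to 495 to 1070.0 in KO, against 1838 to 2354 in HET. Of the myeloid list *Lyz2* and *Itgam* were lower in KO without overlap, whereas *Csf1r*, *Adgre1* and *Cd14* overlapped. The 4 epithelial markers, mostly *Epcam*, summed to 2773 to 3273 in KO, against 3495 to 3698 in HET, and the 5 fibroblast and endothelial markers, mostly *Pecam1*, to 5145 to 5937 in KO, against 4126 to 4655 in HET. In the fibroblast and endothelial list *Pecam1* was higher in KO without overlap, whereas *Cdh5* and *Col1a1*, at low values, were lower in KO without overlap. *Col3a1* and *Pdgfra* were at or near 0 in both genotypes. The sums of these 6 lists did not overlap, and their part in these results was not tested.

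At 24 hr 0 of 20 cytosolic genes passed between KO and HET, and 0 of 16 mitochondrial genes were higher and 1 lower, against 7.03% of all genes that were higher and 5.45% that were lower. *Iars2* (ENSMUSG00000026618, chromosome 1, 185286642 to 185329419), for the mitochondrial isoleucine enzyme, had 2159, 2137 and 2021 in KO at 24 hr, against 3087, 2271 and 3180.2 in HET (log2 fold change -0.42, SE 0.13, adjusted p = 0.0436), with the groups apart. Of the cytosolic genes 17 of 20 lay below 0 in log2 (median -0.22, against 0.00 over all genes), and for 5 of 20 every KO library was below every HET library, against 16.9% of all genes tested. *Qars* was one of them in its values, with 6588, 6729 and 6417 in KO, against 8319, 10561 and 7474 in HET, but did not pass (log2 fold change -0.40, SE 0.15, adjusted p = 0.0746). None of the 36 members passed without HET replicate 1 or without any 1 of the 3 KO libraries at 24 hr, and 4 passed without HET replicate 2. The *Iars2* call was also lost without HET replicate 3.

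At 48 hr 0 of 20 cytosolic genes passed between KO and HET, and 1 of 16 mitochondrial genes was higher and 0 lower, against 6.13% of all genes that were higher and 6.95% that were lower. *Aars2* had 1133, 1200.4 and 1703 in KO at 48 hr, against 849, 936 and 655 in HET (log2 fold change 0.72, SE 0.19, adjusted p = 0.0144), so that the KO libraries lay above all HET libraries. *Vars* had 9816, 9808 and 14176 in KO, against 8903, 10729.9 and 6151 in HET, and its log2 fold change of 0.41 did not pass. The cytosolic median was -0.06 and the mitochondrial median 0.07, against -0.01 over all genes. None passed without HET replicate 3 or KO replicate 3 at 48 hr, 3 passed without HET replicate 2 and 2 without KO replicate 2.

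**Figure D4:**
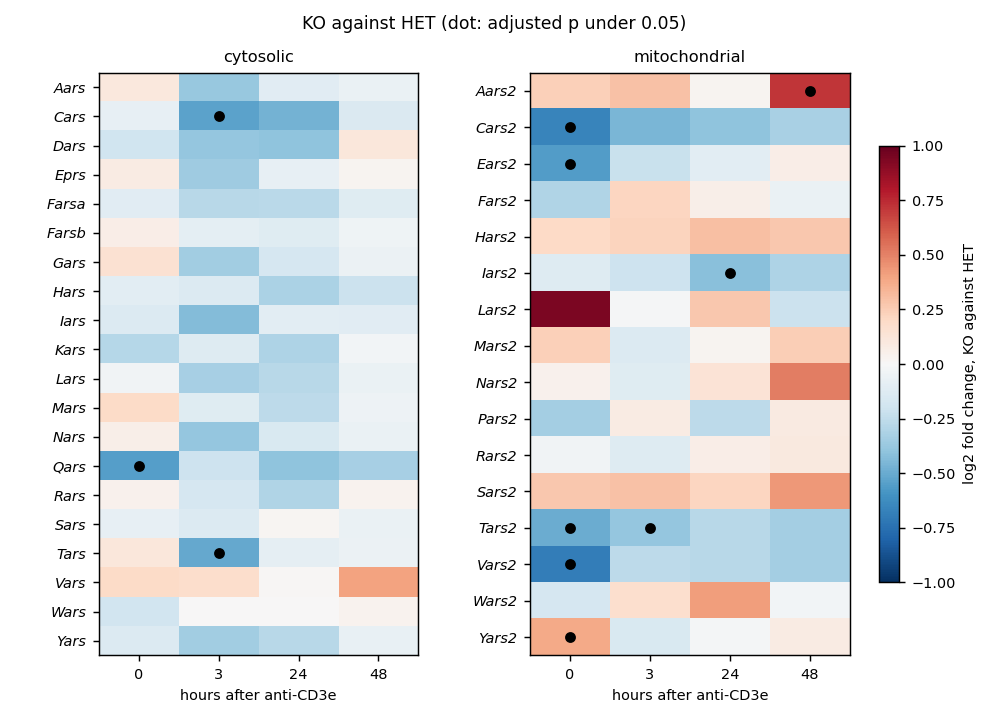
Log2 fold change of KO against HET (colour, red higher and blue lower in KO) for each synthetase gene (rows) at 0, 3, 24 and 48 hr (columns), with a dot for an adjusted p under 0.05. Most cytosolic genes are blue at 3 and 24 hr, and 11 dots stand among the 36 genes and 4 times.

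*Lars2* (ENSMUSG00000035202, chromosome 9, 123366927 to 123462675), for the mitochondrial leucine enzyme, did not pass in any comparison and varied widely between replicates. Over the 25 libraries it had a mean of 51236 and ran from 18398 to 80803, with 38405, 69947, 80803 and 60089 in KO at 0 hr, against 20643, 20487 and 72549 in HET at 0 hr (log2 fold change 0.94, SE 0.44, adjusted p = 0.127). The HET replicate that was high, replicate 3, was high too in *mt-Rnr1*, a mitochondrial ribosomal RNA, with 61599.8, 98359.9, 203047 and 102347 in KO, against 32178, 21893 and 241065 in HET. The largest row of the table, which has an identifier (ENSMUSG00000098178) and no symbol in the names used here, took 3.14 to 13.98% of all values and was lowest in the same HET replicates 1 and 2 at 0 hr. *Lars2* and *mt-Rnr1* did not run together in every group. Their replicates had the same order in KO at 24 and 48 hr and the reverse order in HET at 3 and 24 hr. In HET at 3 hr *Lars2* had 22177, 28972 and 48904, and *mt-Rnr1* had 75664, 39634 and 26782. The largest row had 2484630, 2903630 and 3206090 there, in the same replicate order as *Lars2*. Its order was also that of *Lars2* in KO at 3, 24 and 48 hr, but not in KO at 0 hr or in HET at 0, 24 and 48 hr. Whether reads of *mt-Rnr1* or of the largest row account for part of the *Lars2* values was not tested, and *Lars2* was left out of the summed and per-kilobase levels.

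**Figure D5:**
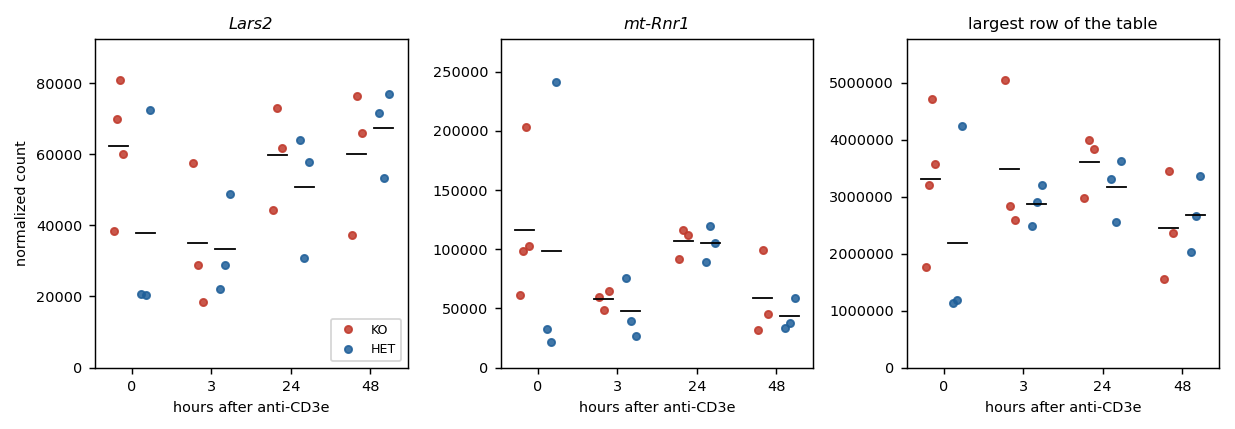
Normalized count (vertical axes) of *Lars2*, of *mt-Rnr1* and of the largest row of the table in every library by hours after anti-CD3ε, with KO (red) left of HET (blue) and black bars for group means. HET replicate 3 at 0 hr is high in every panel, while HET replicates 1 and 2 at 0 hr are low.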

How the data were processed

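Per the labels and methods, reads of stranded polyA libraries were trimmed with Trimmomatic 0.36, aligned to GRCm38 with STAR 2.5.2a and counted with RSEM 1.2.31, and the authors deposited a signal, the gene count divided by a size factor per library from DESeq2 1.18.1 in R 3.4.1 (normalized count). Whole reads within 0.001 were recovered for 23 libraries by their low values; in the other 2 the step was too near 1 to tell.

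The 14141 genes that averaged 10 or more entered a limma fit (version 3.58.1, R 4.3.3) of log2(value + 1), with 1 mean for each of 8 groups over 25 libraries, a trend on mean expression and Benjamini-Hochberg adjustment within each of 16 comparisons. Fold changes on this scale understate changes of low genes. "Passed", "rose" and "fell" mean an adjusted p under 0.05, and groups are apart where no library of one reaches the range of the other. The fit was tested on simulated data. For each comparison, values per library were given for up to 4 cytosolic and 3 mitochondrial members with the largest change among those that passed, and for cytosolic members against the majority; other values shown were chosen after they were seen. Symbols matched 12973 of the tested identifiers. Members, related lists, markers and motifs were chosen with earlier results of these data known. RefSeq (GRCm38.p6) gave coordinates and windows, and an older annotation gave transcript lengths.

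As alternatives the pseudocount was set to 0.5 or 5 and the filter was dropped or raised to 100, and others were a common total, quantile normalization, no trend, only the groups compared, the replicate number as a block, lane as a covariate, edgeR 4.0.16 and DESeq2 1.42.0 on recovered reads, and each replicate left out. The omission of 3 libraries that stood apart was added after seeing the data. The 27 replicate pairs differed by more than counting noise. Figures were drawn with Python 3.11.15 and matplotlib 3.10.9.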

Additional observations from a re-analysis of the deposited data

How the results depend on the processing

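Of 56 named calls none changed sign under any alternative. All 56 were kept by DESeq2, by both pseudocounts and by the stricter filter, 28 were lost with lane as a covariate, 12 with only the groups compared, 7 without a filter, 7 without the 3 libraries that stood apart (KO and HET replicates 3, chosen after seeing the data), 6 with a common total, 6 with quantile normalization, 3 without the trend and 1 by edgeR. With 1 replicate left out, 69 of 352 calls were lost. The causes were not tested.

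Counts of members that passed moved by over 1.5 times as follows. In KO against HET at 0 hr (6), lane as a covariate gave 1. In KO against HET at 3 hr (3), 1 passed without a filter, with quantile normalization or with lane, 0 with a common total or only the groups compared, and 6 by DESeq2. In KO against HET at 24 hr (1), 0 passed without a filter, without the trend, with a common total or only the groups compared, 2 with quantile normalization, 4 with lane and 5 by DESeq2. In KO against HET at 48 hr (1), 2 passed with a common total or quantile normalization, 0 with only the groups compared or without the 3 libraries, and 4 by DESeq2. In KO, lane gave 1 at 3 hr (10), 0 at 24 hr (6) and 0 at 48 hr (2) against 0 hr. With only the groups compared KO had 11 at 24 hr and 0 at 48 hr against 0 hr, without the 3 libraries it had 4 at 48 hr, and without a filter it had 10 at 24 against 3 hr (16). In HET, lane gave 8 at 3 hr (20) and 2 at 24 hr (10) against 0 hr, and only the groups compared gave 5 at 24 hr, 7 at 48 hr (11) and 5 at 24 against 3 hr (12), where omission of the 3 libraries gave 19. With 1 replicate left out, KO against HET gave 4 to 6 members (0 hr), 0 to 4 (3 hr), 0 to 4 (24 hr) and 0 to 3 (48 hr). Against 0 hr the KO counts were 4 to 9 (3 hr), 1 to 5 (24 hr) and 0 to 3 (48 hr), with 8 to 11 for 24 against 3 hr, and in HET from 17 to 20, 6 to 13 and 7 to 13 against 0 hr and 9 to 18 at 24 against 3 hr. The genotype by time count at 3 hr ran from 0 to 1. With a common total the split of all genes higher and lower in KO against HET became 980 and 351 at 3 hr, against 813 and 485, and 1012 and 697 at 48 hr, against 867 and 983.

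Replicate numbers did not pair the libraries: the deviations of same-numbered libraries correlated between -0.197 and 0.205 over 12 pairs, 2 of them over 0.1. With the number as a replicate block 7 of 56 named calls were lost, and 1 member passed in KO against HET at 3 hr, 3 in KO at 24 hr and 1 in KO at 48 hr against 0 hr. Each group mean rests on 3 or 4 mice, so small changes may be missed.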
